A study of Homo sapiens with 4 samples.

Results

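Ribosomal protein pseudogenes were described in BLaER1, a line of human B cell leukaemia cells with a C/EBPα transgene that can be switched on, after knockdown of the long non-coding RNA HAL7. Of the 43450 gene IDs in the deposited table, 1497 mapped to a pseudogene named after a ribosomal protein gene, and 93 of these had a mean of at least 1 FPKM over the 4 libraries. FPKM counts fragments per length of transcript, scaled to the sequencing depth of each library. The 93 members were thus chosen by their level over all 4 libraries, and that level is given below as a description. The other 1404 lay below the limit, 705 of them at 0 in every library. The first group held 2 libraries of BLaER1 cells with HAL7 knocked down (KD), per the labels with 3 LNA GapmeRs, antisense oligonucleotides that direct RNase H to the bound RNA, put into the culture medium with no transfection. The second group held 2 libraries of control BLaER1 cells, for which the sources used here do not say what was added. Each group carried the replicate numbers 0 and 1, and the labels do not say that replicates were separate cultures, so every p-value below reflects a spread among libraries that may be purely technical. All 4 libraries came from 1 cell line, and polyadenylated RNA was sequenced from 1 µg of total RNA.

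Ribosomal protein genes are among the most highly transcribed genes of a cell, and each encodes 1 protein of the large (RPL) or small (RPS) ribosomal subunit. Processed pseudogenes are copies of their spliced messenger RNAs that were reverse-transcribed and inserted elsewhere in the genome; they lack the introns and usually the promoter of the parent gene. A young copy differs from the parent's messenger RNA at few bases, so a short read from the parent can match the copy as well as it matches the parent, and an aligner places it in one, in the other or in both. The copy lacks introns, so a read that crosses an exon junction of the parent needs no gap when it is placed on the copy.

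HAL7 was at 0.475 and 0.347 FPKM in the KD libraries, against 0.726 and 0.613 FPKM in the control libraries, a difference that limma did not call (adjusted p = 0.32). The 8 B cell markers lay between 81.8 and 1478 FPKM in every library. Of the macrophage and monocyte markers, CSF1R stood at 33.8 to 38.0 FPKM and CD14, LYZ, ITGAM, FCGR1A and MPO at 0.630 FPKM or less, and the T cell markers were at or near 0. Steps in the low FPKM values of 1214 genes gave relative depths of 1.79 and 1.61 in KD replicates 0 and 1, against 1 and 2.13 in control replicates 0 and 1.

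Of the 93 members, 77 are annotated as processed pseudogenes and 13 as transcribed processed pseudogenes, 2 as transcribed unprocessed and 1 as unprocessed. Names of 61 members come from large-subunit genes and those of 32 from small-subunit genes. A parent gene was in the table for 90 members, and these share 43 parents. The 3 RPL17 pseudogenes RPL17P7, RPL17P47 and RPL17P36 had no parent row. RPL23A had 8 members, RPS27 and RPL32 had 6 each, RPL21 had 5, and 22 parents had 1 member each. Members that share a parent share sequence and are not independent of each other. The levels ran from 1.01 to 517 FPKM with a median of 4.19 FPKM. RPL9P25, RPL32P24 and RPS6P25 lay just inside the limit at means of 1.01, 1.03 and 1.03 FPKM. RPL7AP10, RPL5P34 and RPL28P2 lay just outside it at means of 0.986, 0.965 and 0.949 FPKM. In 82 members the mean was at least 1 FPKM in both groups, in 4 it was below 1 FPKM in KD alone, and in 7 it was below 1 FPKM in control alone.

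Together the members held 3371 and 3636 FPKM in the KD libraries, against 3307 and 3187 FPKM in the control libraries. This was 1.68% and 1.68% of the summed level of their parents in the KD libraries, against 1.65% and 1.55% in the control libraries. The 10 most abundant members made up 62.6% to 65.9% of the members' sum. In 90 of 90 comparable members the parent stood above the pseudogene in every library, and the median member stood at 0.112% of its parent's mean level. That share ran from 0.0091% for RPS27P19 to 14.4% for RPS28P7. For 88 of 90 members, the whole mean level was smaller than the larger gap between 2 replicate libraries of the parent in FPKM.

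RPS28P7, a copy of the small-subunit gene RPS28, was the most abundant member. It had 505 and 546 FPKM in the KD libraries, against 541 and 476 FPKM in the control libraries, and the groups overlapped. RPS28 itself had 3294 and 3792 FPKM in the KD libraries, against 3797 and 3449 FPKM in the control libraries. The first 207 bases of the annotated RPS28P7 transcript are identical letter for letter to the coding sequence of RPS28, which is why both are shown (GENCODE 29 transcripts on GRCh38; RPS28P7 on the plus strand of chr11:82689559-82689768 and RPS28 on the plus strand of chr19:8321158-8323340). The stop codon of RPS28 is left out.
RPS28P7: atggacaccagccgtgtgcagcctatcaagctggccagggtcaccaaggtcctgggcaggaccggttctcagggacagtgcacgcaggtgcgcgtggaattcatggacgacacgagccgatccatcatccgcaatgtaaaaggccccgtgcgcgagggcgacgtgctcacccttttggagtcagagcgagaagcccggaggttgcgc
RPS28: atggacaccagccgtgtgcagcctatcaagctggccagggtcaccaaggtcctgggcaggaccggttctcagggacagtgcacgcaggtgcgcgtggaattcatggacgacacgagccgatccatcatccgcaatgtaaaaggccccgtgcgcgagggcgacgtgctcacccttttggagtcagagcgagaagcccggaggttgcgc
Sequence sharing was measured as the share of a pseudogene's exonic 50-base windows that occur exactly, on either strand, in exons of another gene. For RPS28P7 100% of 161 windows were found in RPS28, and no window was unique to it. Of the shared windows, 54.0% cross an exon junction of RPS28.

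RPS2P46, a copy of the small-subunit gene RPS2, followed with 300.4 and 329 FPKM in the KD libraries, against 312 and 345 FPKM in the control libraries. RPL36AP37, a copy of the large-subunit gene RPL36A, had 287 and 288 FPKM in the KD libraries, against 315 and 301 FPKM in the control libraries. Neither was called by limma (adjusted p = 0.70 and 0.38), although the RPL36AP37 values were lower in both KD libraries than in both control libraries. RPL36AP37 shared 100% of its windows with RPL36A, and RPS2P46 shared 48.6% with RPS2. Others of the 10 most abundant were copies of RPS3A (RPS3AP6 and RPS3AP5), RPL7 (RPL7P9), RPL13A (RPL13AP5), RPS23 (RPS23P8) and RPLP0 (RPLP0P9), with means of 122 to 195 FPKM.

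Sequence sharing was set beside level for the members, which were themselves chosen by level, so the values describe these members and not all copies. Near copies under the limit are left out, such as RPS28P4, which holds 68.9% of the windows of RPS28P7 and was listed at 0 in every library. Alignment to the parent covered at least 90% of the length of 77 members, and 25 of these had no more than 5 mismatches and gaps, a gap of any length counting as 1. RPL9P9 was the only one of the 25 whose gaps exceeded 10 bases. The identity of the aligned stretch had a median of 98.2% and ran from 75.7% to 100%. The share of 50-base windows found in the parent had a median of 38.6%. It was at least 50% in 33 members, from 10% to under 50% in 27 and under 10% in 30, of which 22 had 0. Alignment covered under 50% of the length in 8 members, all in this last class. Their low share reflects in part annotated sequence that did not align to the parent. The median level was 49.5 FPKM in the first class, 3.32 FPKM in the second and 1.83 FPKM in the third. All 20 members of highest mean level had at least 40% of their windows in the parent. Across the 90 members the share went with mean level (Spearman's rho = 0.64) and with the level as a percentage of the parent (rho = 0.56). These points share the 4 libraries, and members of 1 family share a parent. In 68 members with shared windows, a median of 35.99% of them crossed an exon junction of the parent. How many fragments of each member came from the parent was not tested, since reads were not used here.

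**Figure D1:**
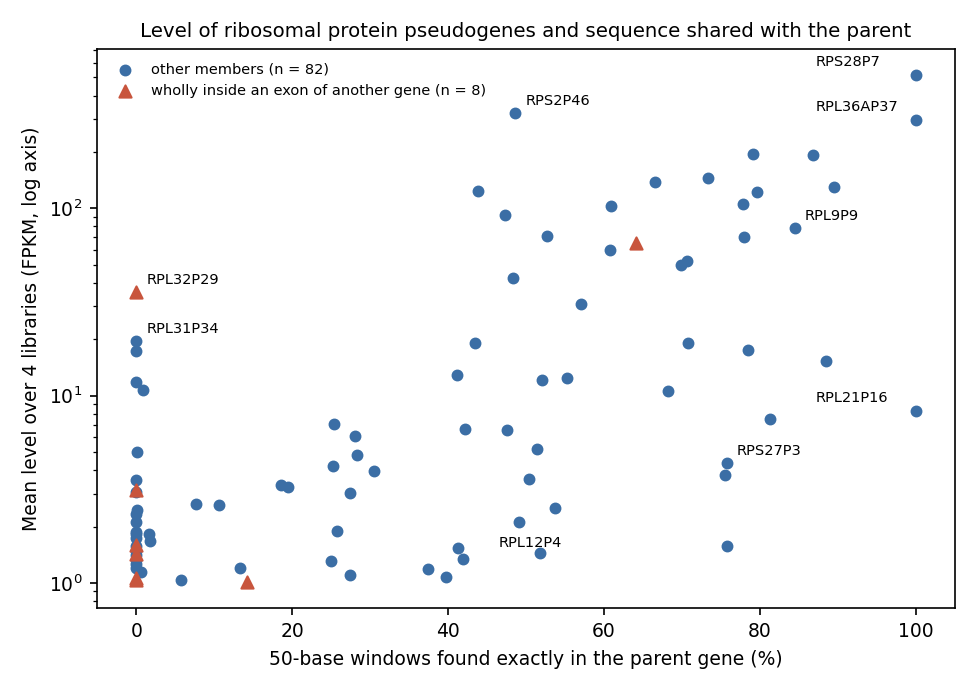
Mean FPKM over the 4 libraries (vertical, log axis) against the percentage of a member's 50-base windows found exactly in its parent gene (horizontal), 1 point per member with a parent in the table (n = 90). Triangles are the 8 members that lie wholly inside an exon of another gene. The members of highest level lie to the right, with RPS28P7 at 517 FPKM and 100%, and a column of members at 0 reaches 35.6 FPKM with RPL32P29.

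Several members had sequence that tells them apart from every other annotated transcript. In 13 members at least 95% of the windows occurred in no other gene, and in 6 of them all did. RPL31P34, a copy of the large-subunit gene RPL31, had 17.9 and 19.3 FPKM in the KD libraries, against 21.0 and 19.98 FPKM in the control libraries. Both KD values lay below both control values, at a limma adjusted p of 0.34. RPS27AP7 is a copy of RPS27A, which encodes ubiquitin fused to a small-subunit protein. It had 17.3 and 15.9 FPKM in the KD libraries, against 16.9 and 18.8 FPKM in the control libraries, and the groups overlapped (adjusted p = 0.54). Neither shared a 50-base window with its parent, and the identity of the aligned stretch was 85.9% for RPL31P34 and 89.0% for RPS27AP7. The 90-base stretches below, shown to set a distant copy beside a near one, run 5′ to 3′ along the transcript, and capitals mark the bases that differ from the parent. They were chosen as the ungapped coding stretches where RPS27AP7 and RPL31P34 differ most, so they overstate the difference over the full length. RPS27AP16 is shown in the stretch chosen for RPS27AP7. RPS27AP7 (plus strand, chr2:47883455-47883909, from transcript base 91) differs at 14 bases from RPS27A (plus strand, chr2:55231903-55235853, from base 91 of its coding sequence). RPS27AP16 (minus strand, chr16:61055399-61055964, from transcript base 141) differs from RPS27A at 1 base. RPL31P34 (minus strand, chr7:6490793-6491098, from transcript base 152) differs at 17 bases from RPL31 (plus strand, chr2:101001715-101024032, from base 173 of its coding sequence).
RPS27AP7: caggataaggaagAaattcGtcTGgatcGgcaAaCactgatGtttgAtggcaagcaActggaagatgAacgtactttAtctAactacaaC
RPS27AP16: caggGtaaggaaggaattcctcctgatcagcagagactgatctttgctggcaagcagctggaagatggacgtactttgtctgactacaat
RPS27A: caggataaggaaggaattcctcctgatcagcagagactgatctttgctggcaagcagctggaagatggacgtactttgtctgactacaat
RPL31P34: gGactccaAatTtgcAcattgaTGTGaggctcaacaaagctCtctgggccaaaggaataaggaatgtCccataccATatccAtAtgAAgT
RPL31: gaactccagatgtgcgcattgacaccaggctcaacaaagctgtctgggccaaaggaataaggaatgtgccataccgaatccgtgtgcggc
RPS27AP16, with 43.5% of its windows in RPS27A, stood at 17.1 and 21.0 FPKM in the KD libraries, against 16.7 and 21.4 FPKM in the control libraries. Its mean of 19.0 FPKM was close to the 17.2 FPKM of RPS27AP7, so 2 copies of the same gene with unlike sharing stood at like levels. RPL32P3, annotated as a transcribed unprocessed pseudogene, had 11.8 and 11.1 FPKM in the KD libraries, against 11.5 and 12.6 FPKM in the control libraries. Only 3.62% of its longest annotated transcript, of 2816 bases, aligned to RPL32. Where on it the counted fragments lie was not tested. Over the 13 members the ratio of mean KD to mean control FPKM ran from 0.673 in RPS3AP38 to 1.19 in RPL21P118. None was called, beside 0.0309% of all genes tested, and the lowest limma adjusted p among the 13 was 0.21, that of RPS3AP38. At an unadjusted p under 0.05, 1 of the 13 was lower in KD and 0 were higher, beside 9.35% and 7.25% of all genes. These 13 were picked after their values had been seen.

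A different kind of overlap concerns genes that hold a pseudogene inside one of their own exons. Of the 93 members, 25 overlapped an exon of another gene and 8 lay wholly inside an exon of a gene on the same strand. RPL32P29 lies in an annotated exon of the small-subunit gene RPS29. It had 31.8 and 38.0 FPKM in the KD libraries, against 38.1 and 34.6 FPKM in the control libraries. RPS29 had 10019 and 10674 FPKM in the KD libraries, against 9565 and 10047 FPKM in the control libraries. All 50-base windows of RPL32P29 also belong to RPS29 transcripts, and 0 belong to RPL32, the gene it is named after. RPS26P19 lies in an exon of POLR2D, which encodes a subunit of RNA polymerase II, and all of its windows are POLR2D sequence. It had 3.36 and 1.37 FPKM in the KD libraries, against 0.000207 and 0.944 FPKM in the control libraries, and POLR2D had 19.2 and 21.0 FPKM against 18.8 and 17.5 FPKM. The value in control replicate 0 corresponds to 0.0043 fragments at the depth recovered from the steps, less than 1 whole fragment. RPL12P16 stood far above its host, at a mean of 64.9 FPKM against 1.10 FPKM for NBEAL1, and had 64.1% of its windows in RPL12. The other 5 were RPL12P28 in ANKRD16, RPL23AP1 in HLA-F-AS1, RPL32P24 in ANKRD42, RPL9P25 in TIPIN and RPLP1P11 in TTC19. RPL7P1 lies on the opposite strand inside CSF1R, and strand-specific counting is not stated.

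KD was compared with control with limma on log2(FPKM + 1) over 12935 genes, a scale that understates the change of low genes. Of all genes tested, 4 (0.0309%) had a Benjamini-Hochberg adjusted p under 0.05, and 3 of these were lower in KD (0.0232%). Among the members 1 of 93 was called, the large-subunit copy RPL12P4, which was lower in KD, and it had reached the limit of 1 FPKM only through the control libraries. Of the 82 members with a mean of at least 1 FPKM in both groups, 0 were called by limma. The members' changes had a median of 0.07 on the log2 scale, with 57 above 0 and 36 below 0, beside a median of -0.01 over all genes tested. At an unadjusted p under 0.05, 15 members were higher and 3 were lower in KD, beside 7.25% of all genes higher and 9.35% lower. Some members counted here, such as RPS26P19, RPL32P24 and RPL12P4, reached the limit through 1 group alone, which fixed their direction in part. Over the 82 members at the limit in both groups, 10 were higher and 1 was lower at that p. All genes were not counted under that filter, and members of 1 family are not independent, so no shift is read from these counts. In 27 members both KD values lay above both control values and in 9 below them, beside 22.5% and 27.7% of all genes. These counts also hold members that reached the limit through 1 group alone. Among the 82 members at the limit in both groups they were 20 and 7, again without a share of all genes under that filter. The ratio of mean KD to mean control FPKM lay between 0.8 and 1.2 in 61 members, was at least 2 in 2 and at most 0.5 in 3. In 70 of 93 members the larger gap between replicate libraries exceeded the size of the change. In bulk RNA, a shift in the number of cells of a type cannot be told apart from a shift in RNA per cell.

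The parents did not pass the test. Of 43 parents, 0 were called by limma and 0 had an unadjusted p under 0.05, with a median log2 change of 0.05, 35 above 0 and 8 below 0. Over the cytosolic ribosomal protein genes, 78 of 79 listed were tested, with a median log2 change of 0.04, 0 called in either direction and 0 at an unadjusted p under 0.05. When the pseudogene's change was set against that of its parent in 1 fit over 261 pairs of any gene family, 0 pairs were called. At an unadjusted p under 0.05, 3 members were higher relative to the parent and 3 lower, of 90, beside 4.6% and 6.13% of all pairs, or 10.7% in both directions together. In 90 of 90 members the difference between the KD and control means in FPKM was smaller than the larger replicate gap of the parent. For 88 of the 90 the whole mean level lay below that gap, so the count follows largely from level. It includes the 22 members with 0 windows in the parent, and read sharing was not tested.

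**Figure D2:**
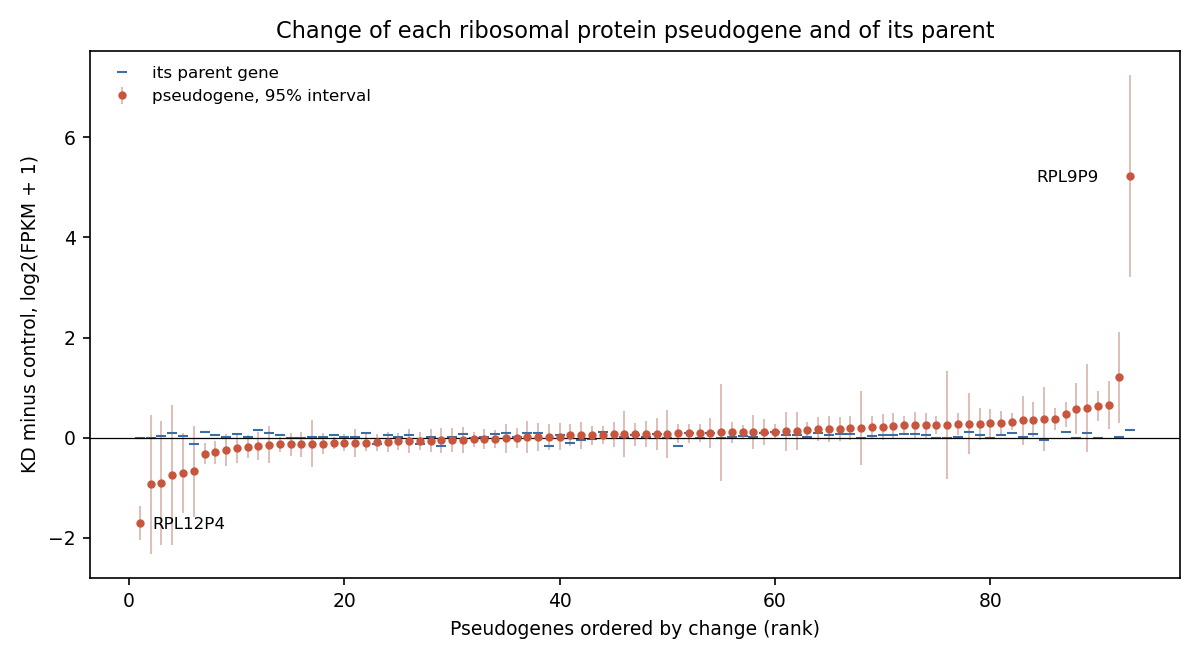
Log2 difference, KD minus control, on the log2(FPKM + 1) scale (vertical) for the 93 members in order of change (horizontal), with 95% intervals from limma; blue dashes give the change of the parent gene. RPL12P4 at -1.70 and RPL9P9 at 5.23 stand at the 2 ends, and the parents lie between -0.17 and 0.15.

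RPL12P4, a processed copy of RPL12, had 0.658 and 0.288 FPKM in the KD libraries, against 3.51 and 4.02 FPKM in the control libraries. The groups did not overlap, and the ratio of the means was 0.126. The log2 change was -1.70 with a standard error of 0.14 (limma adjusted p = 0.033). RPL12, which encodes a protein near the stalk of the large subunit, had 4549 and 4899 FPKM in the KD libraries, against 4833 and 4682 FPKM in the control libraries. The difference of RPL12P4 between the groups, 3.29 FPKM, compares with a gap of 349.7 FPKM between the 2 KD libraries of RPL12. Relative to its parent, RPL12P4 changed by -1.69 with a standard error of 0.21 and missed the threshold (limma adjusted p = 0.094 over 261 pairs). At the recovered depth its values correspond to about 35.0 and 13.7 fragments in the KD libraries, against 104 and 255 fragments in the control libraries, if the annotated length holds. Without control replicate 0 its limma adjusted p was 0.064, and without control replicate 1 it was 0.13. It lost the call with a pseudocount of 0.1 (adjusted p = 0.14), with no filter on low values (0.43), with quantile normalization (0.10) and without the variance trend (0.054), and with a mean of at least 5 FPKM it was not tested.

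The sequence of RPL12P4 is shown beside RPL12P16 and RPL12, since it shares about as many windows with that copy as with the parent. Of its 448 windows 49.1% were found in RPL12, 55.1% in RPL12P16 and 21.4% in no other gene. Of the windows shared with RPL12, 70.0% cross an exon junction of that gene. The 90 bases below are the ungapped coding stretch where RPL12P4 differs most from its parent. Capitals mark differences from RPL12, which lies on the minus strand of chr9:127447674-127451405 (from base 367 of its coding sequence). RPL12P4 (plus strand, chr20:55074644-55075140, from transcript base 366) has 3 and RPL12P16 (plus strand, chr2:203190780-203191277, from transcript base 367) has 1.
RPL12P4: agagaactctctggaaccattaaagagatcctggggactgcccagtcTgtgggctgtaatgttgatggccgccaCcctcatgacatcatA
RPL12P16: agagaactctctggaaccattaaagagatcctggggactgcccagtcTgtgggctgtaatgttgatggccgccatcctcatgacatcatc
RPL12: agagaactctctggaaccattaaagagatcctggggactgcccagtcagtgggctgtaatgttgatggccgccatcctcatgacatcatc
The difference that RPL12P16 carries is also carried by RPL12P4. RPL12P16 had 63.1 and 65.2 FPKM in the KD libraries, against 62.8 and 68.6 FPKM in the control libraries, and the groups overlapped. Summed, the 3 RPL12 copies held 65.2 and 67.0 FPKM in the KD libraries, against 67.9 and 74.5 FPKM in the control libraries.

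RPL9P9 showed the largest fitted change of the 93 members and was not called. It had 146 and 157 FPKM in the KD libraries, against 0.440 and 10.5 FPKM in the control libraries. The groups did not overlap, and the 2 control libraries differed from each other by 2.998 on the log2(FPKM + 1) scale, the largest replicate gap of any member. The log2 change was 5.23 with a standard error of 0.84 (limma unadjusted p = 0.00062, adjusted p = 0.19), and the ratio of the means was 27.7. Without control replicate 0, and likewise without control replicate 1, limma called it, and it was not called without either KD library. RPL9, a large-subunit gene, had 5262 and 5636 FPKM in the KD libraries, against 4716 and 5136 FPKM in the control libraries (limma adjusted p = 0.41). The mean of RPL9P9 was 2.78% of that of RPL9 in KD and 0.111% in control. The difference of RPL9P9 between the groups was 146 FPKM, and the 2 control libraries of RPL9 differed by 420.0 FPKM. Relative to RPL9, the log2 change was 5.08 with a standard error of 0.96 (limma adjusted p = 0.30). The ratio of RPL9 between KD and control was 1.11, and 1.14 when its 2 copies were added to it.

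RPL9P9 is annotated as a transcribed processed pseudogene on the minus strand of chr15:82372196-82372912, the name being that of GENCODE 29; RefSeq's table gives it as another name of RPL9P8. It lies inside UBE2Q2P2, a pseudogene on the opposite strand that was listed at 0 in both KD libraries and at 0.0252 and 0 FPKM in the control libraries. Over 97.6% of its length it aligned to RPL9 at 99.8% identity, which leaves out gaps. It had 1 mismatch and 1 gap, which spans 81 bases of RPL9 that are missing from the aligned transcript. That transcript, of 636 bases, is 1 of 2 annotated for RPL9P9. The locus spans 717 bases, which exceeds the 636 bases of that transcript by as many bases as the gap holds. The alignment thus shows no loss of these bases from the locus, and the bases themselves were not aligned. Of its 714 windows 84.5% occur in RPL9, 67.4% in RPL9P7 and 11.9% in no other gene. The stretch of RPL9P9 with its single mismatch to RPL9 is shown, with the differing base in capitals. It starts at transcript base 301 of RPL9P9 and at base 277 of the coding sequence of RPL9 (minus strand, chr4:39452521-39458949).
RPL9P9: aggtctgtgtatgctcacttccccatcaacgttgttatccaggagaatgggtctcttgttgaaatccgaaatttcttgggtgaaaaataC
RPL9: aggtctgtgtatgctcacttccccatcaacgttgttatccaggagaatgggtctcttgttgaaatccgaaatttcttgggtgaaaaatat
RPL9P7, a copy below the limit, had 1.07 and 1.29 FPKM in the KD libraries, against 0.479 and 0.704 FPKM in the control libraries. The other RPL9 member, RPL9P25, had 1.04 and 0.753 FPKM in the KD libraries, against 1.24 and 0.991 FPKM in the control libraries, and its groups overlapped.

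**Figure D3:**
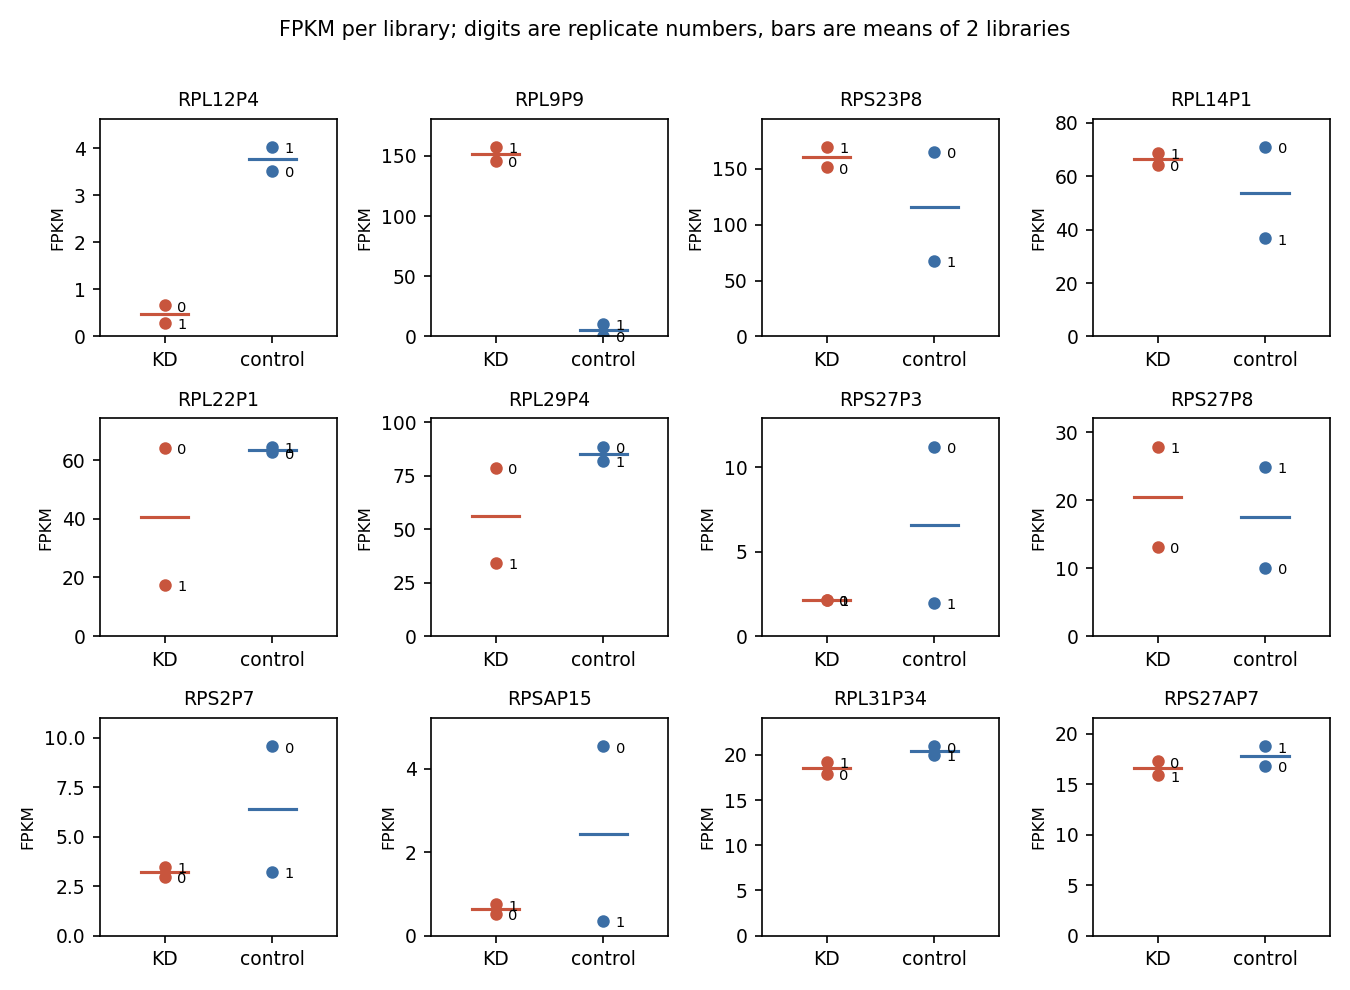
FPKM per library (vertical, each panel from 0) for 12 members, with KD on the left and control on the right; points are libraries with their replicate number, and bars are means of 2 libraries. RPL12P4 and RPL9P9 separate the groups. In RPS23P8, RPL14P1, RPL22P1, RPL29P4, RPS27P3 and RPS2P7 1 library stands away from the other 3, and RPL31P34 and RPS27AP7 vary little.

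Single libraries set the value of several members. A library was counted as apart where it lay at least 1.5-fold above the highest or below the lowest of the other 3. Those 3 also had to lie within 1.3-fold of each other, a rule chosen after the values had been seen. This held for 8 of 93 members (8.60%), for 0.673% of all genes that reached the same mean level, for 3.52% of the 199 other processed pseudogenes and for 0 of the 43 parents. The library was KD replicate 1 in 3 members, control replicate 0 in 3, control replicate 1 in 2 and KD replicate 0 in 0. No one library accounted for them all.

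RPL22P1, whose parent RPL22 encodes a large-subunit protein that also binds viral RNA, had 64.0 and 17.4 FPKM in the KD libraries, against 62.6 and 64.6 FPKM in the control libraries. RPL29P4 had 78.5 and 34.2 FPKM in the KD libraries, against 88.6 and 81.9 FPKM in the control libraries. In both, KD replicate 1 was low, at 0.271 and 0.418 of the median of the other 3. The genes around them, MECOM for RPL22P1 and SLC35F1 for RPL29P4, were below 0.1 FPKM in every library. RPS3AP26 was instead high in KD replicate 1, with 8.24 and 15.4 FPKM in the KD libraries, against 10.2 and 8.23 FPKM in the control libraries.

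In the control group, RPS23P8 had 151 and 169 FPKM in the KD libraries, against 165 and 67.6 FPKM in the control libraries. Its parent RPS23, a gene for a protein of the decoding centre, had 8149 and 8673 FPKM in the KD libraries, against 7774 and 7980 FPKM in the control libraries. RPL14P1 had 64.3 and 68.6 FPKM in the KD libraries, against 70.9 and 36.7 FPKM in the control libraries, while RPL14 had 1908 and 2068 FPKM against 2001 and 2110 FPKM. Both copies were low in control replicate 1, and their parents were not. RPS2P7 was high in control replicate 0, with 2.96 and 3.48 FPKM in the KD libraries, against 9.57 and 3.23 FPKM in the control libraries. None of RPL22P1, RPL29P4, RPS23P8, RPL14P1 or RPS2P7 was called by limma (adjusted p of 0.35 to 0.52). Left alone in its group, the library that stood apart brought 4 of these 5 past the limma threshold. RPL22P1 and RPL29P4 were then called lower in KD without KD replicate 0, RPS23P8 higher without control replicate 0 and RPS2P7 lower without control replicate 1.

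RPS27 encodes a small-subunit protein with a zinc finger, and its 6 copies align to it at 96.4% to 99.6% identity. A stretch of 90 bases, from transcript base 67 in each, is shown for 4 of the 6 copies, with capitals for bases that differ from RPS27 (plus strand, chr1:153990755-153992155). It was chosen to hold the mismatch of RPS27P3. RPS27P3 is on the minus strand of chr12:3211663-3211917, RPS27P4 on the plus strand of chr3:40761545-40761799, RPS27P8 on the minus strand of chr1:202471864-202472117 and RPS27P9 on the plus strand of chr1:37556247-37556499.
RPS27P3: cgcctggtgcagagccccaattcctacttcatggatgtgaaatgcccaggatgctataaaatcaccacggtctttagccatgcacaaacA
RPS27P4: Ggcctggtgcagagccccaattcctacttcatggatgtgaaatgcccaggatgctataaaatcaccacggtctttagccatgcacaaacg
RPS27P8: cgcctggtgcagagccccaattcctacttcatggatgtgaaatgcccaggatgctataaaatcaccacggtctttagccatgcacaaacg
RPS27P9: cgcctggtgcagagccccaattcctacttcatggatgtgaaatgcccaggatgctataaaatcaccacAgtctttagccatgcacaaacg
RPS27: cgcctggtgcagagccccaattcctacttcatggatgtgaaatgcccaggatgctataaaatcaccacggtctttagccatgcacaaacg
RPS27P3, RPS27P4 and RPS27P9 differ from RPS27 at 1 base each in this stretch and RPS27P8 at 0. Over their full length they have 1, 1, 4 and 2 mismatches in the order RPS27P3, RPS27P4, RPS27P9 and RPS27P8. The copies not shown are RPS27P6, with 9 mismatches, 1 gap and 18.6% of its windows in RPS27, and RPS27P19, with 5 mismatches and 37.4%. RPS27P3 had 2.15 and 2.15 FPKM in the KD libraries, against 11.2 and 1.96 FPKM in the control libraries. The value in control replicate 0 was 5.22 times the median of the other 3, and among the settings tried, limma called RPS27P3 only when control replicate 1 was left out, as lower in KD. RPS27P8 had 13.1 and 27.9 FPKM in the KD libraries, against 10.1 and 24.9 FPKM in the control libraries. RPS27P4 had 0.829 and 2.46 FPKM in the KD libraries, against 0.618 and 2.39 FPKM in the control libraries. Both were higher in replicate 1 of either group. RPS27 had 12655 and 13534 FPKM in the KD libraries, against 11913 and 14326 FPKM in the control libraries. It too was higher in replicate 1 of either group, by smaller factors than these copies. RPS27P9 was also higher in replicate 1 of either group. RPS27P6 was lower in replicate 1 of KD, and RPS27P3 and RPS27P19 were lower in replicate 1 of control. RPS27P9 had 3.47 and 4.26 FPKM in the KD libraries, against 1.83 and 2.46 FPKM in the control libraries. The groups did not overlap, and it was not called (log2 change 0.63, SE 0.13, limma adjusted p = 0.19). Summed, the 6 copies held 24.7 and 42.5 FPKM in the KD libraries, against 27.0 and 35.5 FPKM in the control libraries, so the family as a whole did not separate the groups.

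RPSAP15, from the small-subunit gene RPSA, had 0.522 and 0.750 FPKM in the KD libraries, against 4.54 and 0.351 FPKM in the control libraries, and control replicate 0 alone carried the difference. RPL17P7 had 5.07 and 5.48 FPKM in the KD libraries, against 4.03 and 2.18 FPKM in the control libraries, without overlap (log2 change 0.65, SE 0.20, limma adjusted p = 0.22). The other RPL17 copies were RPL17P36, with 1.32 and 1.3004 FPKM in the KD libraries against 0.778 and 0.788 FPKM in the control libraries, and RPL17P47, with 1.37 and 1.13 FPKM in the KD libraries against 1.27 and 1.03 FPKM in the control libraries. With no parent row, no comparison to RPL17 was made for these.

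In the RPL23A, RPL32 and RPL21 families the copies were also summed. The 8 RPL23A copies held 39.9 and 38.7 FPKM in the KD libraries, against 40.4 and 39.0 FPKM in the control libraries. The 6 RPL32 copies held 56.5 and 58.5 FPKM in the KD libraries, against 60.6 and 57.8 FPKM in the control libraries. The 5 RPL21 copies held 32.3 and 35.97 FPKM in the KD libraries, against 28.3 and 31.8 FPKM in the control libraries. They include RPL21P16, whose windows all occur in RPL21, at 7.71 and 8.76 FPKM in the KD libraries, against 8.53 and 8.19 FPKM in the control libraries. The RPL23A and RPL32 sums overlapped between the groups, and both KD sums of RPL21 lay above both control sums. Within each family the ratios of single copies ran from 0.808 to 1.13 (RPL23A), 0.888 to 1.46 (RPL32) and 0.985 to 1.24 (RPL21).

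Replicate libraries of the pseudogenes lay farther apart than those of most genes. The larger of the KD and control gaps, on the log2(FPKM + 1) scale, had a median of 0.236 over the members. It was 0.124 over the parents, 0.200 over the 199 other processed pseudogenes and 0.113 over all genes tested. Parents are far more abundant than their copies, and no comparison at matched level was made. Within the members the median gap was 0.329 where at least 50% of windows occur in the parent, 0.288 at 10% to under 50% and 0.179 below 10%. These classes also differ in level, with medians of 49.5, 3.32 and 1.83 FPKM, and the scale shrinks the gaps of low genes. Sharing and level were not separated here. Across 90 members the gap followed the share only weakly (rho = 0.26), and the size of the KD change hardly did (rho = 0.12).

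**Figure D4:**
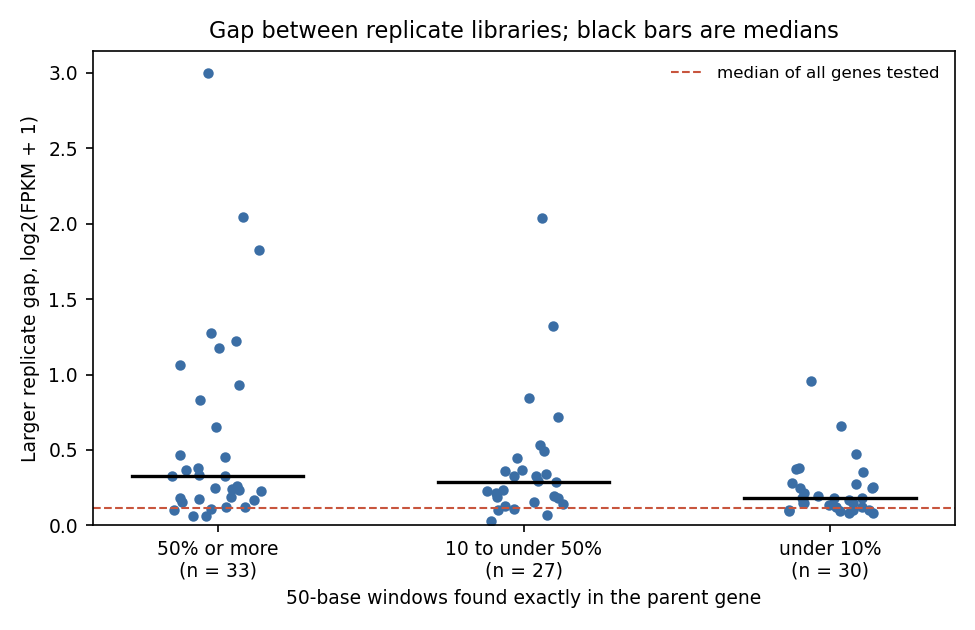
Larger of the 2 replicate gaps per member on the log2(FPKM + 1) scale (vertical) in 3 classes by the share of 50-base windows found in the parent (33, 27 and 30 members). Points are members, black bars are class medians of 0.329, 0.288 and 0.179, and the dashed line is the median of 0.113 over all genes tested. The classes also differ in level.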

How the data were processed

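Polyadenylated RNA of BLaER1 cells was sequenced in 2 KD and 2 control libraries. The deposited values were read as FPKM, because the ID column has the name Cuffdiff gives it and the values are not whole; the table does not state the unit. Per the submitters' processing notes, the authors used Bowtie2 2.2.5, TopHat2 2.0.14 and Cuffdiff 2.2.1 with the build hg19. Their options, the annotation, the library scaling, the read length and the handling of reads with several placements are not given in these sources, and each bears on pseudogenes.

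Symbols were taken by Ensembl ID from current gene names, else from GENCODE 29. Sequences and positions are those of GENCODE 29 on GRCh38. Windows of 50 bases were compared exactly on both strands, and local alignments used a match of 1, a mismatch of -2, a gap opening of -4 and a gap extension of -1 (Biopython 1.88). The KD and control groups were fitted on log2(FPKM + 1) by limma 3.58.1 (R 4.3.3) with a variance trend, over HAL7 and every gene whose mean reached 1 FPKM. Tests were two-sided, and p-values were adjusted by the Benjamini-Hochberg method, with a threshold of 0.05. Pseudogene minus parent was fitted likewise. The procedure was tested on simulated data with independent normal noise whose spread followed level. Single libraries standing apart, as in some members, were not simulated. With 2 libraries in each group, the smallest p of an exact permutation test is 0.333. Fragments were estimated from steps in the low FPKM values and assume the annotated lengths.

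Members, lists and the rule for naming genes were chosen with earlier results of these data known. The rule names called members, the 10 most abundant, the 5 of largest change in each direction, the 6 of largest replicate gap, the 3 on each side of the limit, the 5 of highest and of lowest sharing, members with a value of 0, their parents and hosts, and HAL7. Others named for family, host or 1 library apart were chosen after their values were seen. Some genes that the rule covers are not reported here.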

Additional observations from a re-analysis of the deposited data

How the results depend on the processing

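Of 349 values for 30 named members under other settings, 317 kept their direction and side of the threshold, 17 reversed, 9 passed the threshold only there and 6 lost it. All 17 reversals came from leaving out 1 library, where the lone library of a group is assumed to vary like the others. Over those fits the log2 change ran from -0.0431 to 0.14 in RPS28P7, -0.14 to 0.0083 in RPS2P46, -0.11 to 0.36 in RPL13AP5, -0.0422 to 1.23 in RPS23P8, -0.0336 to 0.15 in RPS3AP5, -0.20 to 0.17 in RPLP0P9, -1.95 to 0.0907 in RPS27P3, -1.81 to 0.0106 in RPL22P1, -1.76 to 0.27 in RPSAP15, -0.10 to 0.0614 in RPL21P16 and -0.18 to 0.0645 in RPL32P29. Over all alternatives the limma adjusted p ran from 0.0068 to 0.43 for RPL12P4 and from 1.3e-06 to 0.43 for RPL9P9.

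All genes called numbered 4, against 2 with a pseudocount of 0.1, 0 with no filter, 1 with a mean of at least 5 FPKM and 11 to 22 with 1 library left out. Called members numbered 1, against 0 with a pseudocount of 0.1, with no filter, with a limit of 5 FPKM, with quantile normalization or with no trend, and 1 to 4 with 1 library left out. Called pairs numbered 0, against 2 with a pseudocount of 5, 1 with a mean of at least 5 FPKM, 2 at an adjusted p of 0.10 and 0 to 3 with 1 library left out; among members there were 0, against 1 with a pseudocount of 5 (RPL9P9), 1 at an adjusted p of 0.10 (RPL12P4) and 0 to 3 with 1 library left out. The cause was not tested. Over the 82 members at 1 FPKM or more in both groups, a set chosen after seeing the data, 0 were called. With the replicate number as a block, limma called 19 genes and 2 members (RPL12P4 and RPL9P9), against 4 and 1. The deviations of same-numbered libraries correlated at 0.12 over 12934 genes and 0.02 over members, and only the number is shared. Median sharing with the parent was 48.4% with windows of 36 bases, 21.7% with 75 and 8.48% with 100. Members numbered 123 at a limit of 0.5 FPKM, 63 at 2 FPKM and 67 by GENCODE 29 symbols alone, an alternative chosen after seeing the data. Depth is estimated and unequal, with control replicate 0 the shallowest.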
